A study of Mus musculus with 4 samples.

Results

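Respiratory complex I was followed through its subunit genes in isolated mouse cardiomyocytes. The members were all genes whose symbol starts with Nduf or mt-Nd, which gave 55 of the 22322 genes in the tables. They fell into 37 nuclear genes for subunits of the complex, the 7 mt-Nd genes of the mitochondrial genome, 8 assembly factors named Ndufaf, and 3 others that are not subunits of the complex in this sorting. Those 3 were Ndufa4, whose product is now assigned to complex IV, its paralog Ndufa4l2, and Ndufb11b, a copy of Ndufb11. Of the 37 nuclear subunits, 7 were core subunits and 30 were accessory subunits. By known position in the complex, 16 belonged to the peripheral arm, 20 to the membrane arm and 1, the acyl carrier protein Ndufab1, to both.

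RNA sequencing had been done on cardiomyocytes of 2 sham-operated mice (sham 1 and sham 2) and 2 mice with transverse aortic constriction (TAC 1 and TAC 2), in which the aortic arch is narrowed so that the left ventricle works against a raised pressure. The mice were male and 2 months old at surgery, and their strain and genotype are not given in the labels or methods used here. Hearts were taken 14 weeks after surgery by the study's results, whereas its methods speak of 14-week-old animals, so the age at collection is uncertain. Cells were released by Langendorff perfusion, the cells of 1 heart were divided into 4 tubes for different assays, and no sort by a marker is described.

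Complex I takes electrons from NADH, passes them along a flavin and a chain of iron-sulfur clusters to ubiquinone, and pumps protons across the inner mitochondrial membrane. The electron path lies in the peripheral arm, whose core subunits are nuclear encoded, while the core of the proton-pumping membrane arm is made from the mt-Nd genes. The heart depends on this chain for most of its ATP. Its complex I is therefore built from mRNAs made in separate compartments, and the mt-Nd mRNAs are cut from long transcripts of the circular mitochondrial genome.

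The mt-Nd genes lie so close together that their reads cannot always be assigned to 1 gene. The shared ends are printed here because they limit the values of mt-Nd4l, mt-Nd4, mt-Nd5 and mt-Nd6. On GRCm38 (GENCODE M21), mt-Nd4l and mt-Nd4 share 7 bases of the same strand (chrM:10167-10173), and mt-Nd5 and mt-Nd6 share 14 bases on opposite strands (chrM:13552-13565). Capitals mark the shared bases, and each sequence is written 5′ to 3′ on the gene's own strand.
mt-Nd4l end: atctcaacctactacaATGCTAA
mt-Nd4 start: ATGCTAAaaattattcttccctc
mt-Nd5 end: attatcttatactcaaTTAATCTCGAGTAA
mt-Nd6 end: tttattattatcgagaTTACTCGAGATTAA
The start codon of mt-Nd4 thus lies inside the coding sequence of mt-Nd4l, and the last codons of mt-Nd5 and mt-Nd6 face each other. The use of strand in counting was not stated in the labels or methods used here, so reads over the 14 bases cannot be told apart. The length implied by count and FPKM (a fragment count divided by transcript length and by library size) equalled the annotated transcript within 1 base for 7 of 7 mt-Nd genes.

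Total counts ran from 24237777 to 32118323 per library, and the 13 protein-coding mitochondrial genes took 39.84% to 47.42% of them. Replicate libraries differed by more than sampling noise, and all 4 were kept. The cell type label was checked with 12 cardiomyocyte markers, which summed to 78249 and 87129 CPM (counts on a common library scale) in sham 1 and sham 2 and to 84940 and 81664 CPM in TAC 1 and TAC 2. Markers of other cells were present at much lower sums, and no marker was at 0 in any library.

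Complex I mRNA was abundant, and its mitochondrial share was far larger than its nuclear share. The 7 mt-Nd genes took 12.7% and 13.19% of all counts in sham 1 and sham 2, and 14.94% and 12.56% in TAC 1 and TAC 2. Their 95% Wilson intervals were 12.69 to 12.72, 13.17 to 13.2, 14.93 to 14.95 and 12.55 to 12.58%. The 37 nuclear subunits together took 0.6412% and 0.6452% in the sham libraries, and 0.5943% and 0.6803% in TAC 1 and TAC 2. Here the intervals were 0.6383 to 0.6441, 0.6422 to 0.6482, 0.5917 to 0.597 and 0.677 to 0.6836%. These intervals cover counting error only. Both shares put the sham libraries between the TAC libraries: TAC 1 had the highest mitochondrial and the lowest nuclear share, and TAC 2 the reverse.

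Summed counts of the mt-Nd genes were 19.8 times those of the nuclear subunits in sham 1, 20.4 times in sham 2, 25.1 times in TAC 1 and 18.5 times in TAC 2. The group means were 20.1 ± 0.442 for sham and 21.8 ± 4.72 for TAC (SD, n = 2), so the difference was smaller than the spread between the TAC libraries. Per length, the median FPKM of the mt-Nd genes was 94, 89, 118.8 and 79.2 times that of the nuclear subunits in the same order. Against the 7 nuclear core subunits alone the ratio of median FPKM was 67.5, 70.5, 85.2 and 60.4. Each of these ratios was highest in TAC 1 and lowest in TAC 2. With 2 libraries against 2, an exact permutation test cannot go below a two-sided p of 0.33, so these ratios are given as values.

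**Figure D1:**
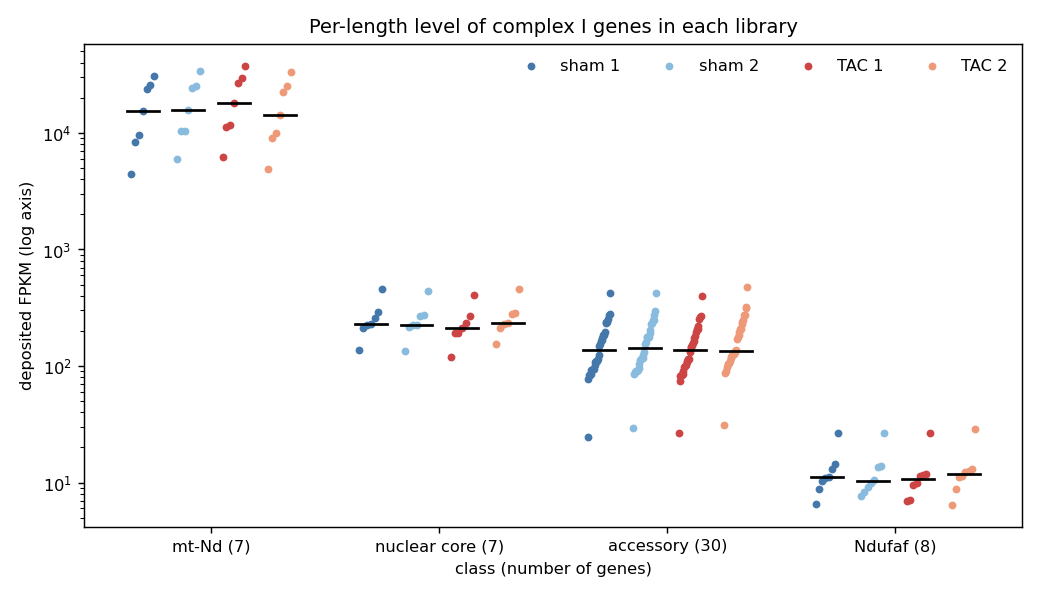
Deposited FPKM (log axis) of each gene in each library, by class, with black bars at the class median. The mt-Nd medians lie between 14179 and 18035 FPKM, the nuclear core medians between 211.7 and 234.8, the accessory medians between 135.6 and 143.3, and the Ndufaf medians between 10.25 and 11.8.

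Among the mitochondrial subunits the order of FPKM levels was the same in all 4 libraries: mt-Nd1, mt-Nd4, mt-Nd2, mt-Nd5, mt-Nd6, mt-Nd3 and mt-Nd4l, from high to low. mt-Nd1, which forms the membrane end of the quinone channel, stood at 31028, 33769, 37596 and 33387 FPKM in sham 1, sham 2, TAC 1 and TAC 2. mt-Nd4l, a small membrane subunit, stood at 4482, 5973, 6252 and 4946 FPKM. mt-Nd1 was 5.65 to 6.92 times as high as mt-Nd4l within a library.

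The antiporter-like subunits mt-Nd2, mt-Nd4 and mt-Nd5, which hold the proton channels, lay between these ends. mt-Nd4 and mt-Nd2 were neighbours in the order, at 25440 ± 231 and 23920 ± 387 FPKM in sham and 27340 ± 3140 and 24750 ± 3180 FPKM in TAC (SD, n = 2). Their TAC levels differed by less than the spread between the libraries. mt-Nd6 and mt-Nd3 were likewise close, at 10040 ± 616 and 9378 ± 1450 FPKM in sham and 10850 ± 1090 and 10080 ± 1500 FPKM in TAC. The genes with shared ends differed in level: mt-Nd4 was 4.23 to 5.71 times mt-Nd4l, and mt-Nd5 was 1.41 to 1.62 times mt-Nd6, the protein gene read from the opposite strand.

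The nuclear subunits were lower and spread out per length. Over the 4 libraries their lower quartile ran from 101.2 to 118.8 FPKM and their upper quartile from 209.9 to 237.7 FPKM. Ndufb8, an accessory subunit of the membrane arm, was among the highest, at 423, 423, 398.2 and 480 FPKM in sham 1, sham 2, TAC 1 and TAC 2. Ndufb10, also of the membrane arm, stood at 286.6 ± 10.4 FPKM in sham and 283.7 ± 40.1 in TAC.

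At the low end Ndufb1, a small membrane arm subunit, had 24.58, 29.15, 26.49 and 31.22 FPKM. Its identifier (ENSMUSG00000113902) is annotated as a bidirectional promoter lncRNA that overlaps Cpsf2 on the opposite strand, so its level is uncertain. By the mean over all 4 libraries the next lowest were Ndufb6 at 86 FPKM and Ndufb4 at 87.33 FPKM. In sham they stood at 87.59 ± 4.76 and 87.47 ± 3.54 FPKM (SD, n = 2) and did not differ beyond their spread. In sham alone Ndufa2 (84.06 FPKM) and Ndufa3 (84.89 FPKM) were lower than both. Ndufb11b had 0 counts in every library, which allows at most 0.0934 to 0.124 CPM of the library total (3 counts).

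The 7 nuclear core subunits, which carry the flavin and the iron-sulfur clusters, had medians of 229.8, 223.7, 211.7 and 234.8 FPKM in sham 1, sham 2, TAC 1 and TAC 2. Ndufs1 stood above Ndufs3 in the first 3 of these libraries and below it in TAC 2. Ndufv1, which binds NADH and the flavin, was at 282.6 ± 15.3 FPKM in sham and 276.8 ± 13.7 in TAC. Ndufs1, Ndufs3 and Ndufs7 lay at 223.3 ± 0.488, 214.1 ± 4.14 and 226.8 ± 4.32 FPKM in sham, and at 203 ± 15.3, 210.5 ± 26.1 and 223.2 ± 16.3 in TAC, where their spreads overlapped. Ndufs8 was the lowest core subunit at 136.6 ± 2.5 FPKM in sham and 137.5 ± 24.8 in TAC. The Ndufaf assembly factors, which help to build the complex without staying in it, were far lower, from Ndufaf6 at 7.11 ± 0.764 to Ndufaf1 at 26.52 ± 0.127 FPKM in sham.

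TAC was then compared with sham across the 12499 genes that passed the low-count filter, with TMM scaling and the quasi-likelihood test of edgeR. The filter kept 54 of the 55 members, all but Ndufb11b. No member passed an adjusted p of 0.05 (edgeR, Benjamini-Hochberg), against 5.01% of all genes tested. At an unadjusted p under 0.05 there were 21 members, 20 higher and 1 lower in TAC, where 27.5% of all genes passed. Of the 37 nuclear subunits, 19 were higher at that level, against 13.5% of all genes, and of the 7 mt-Nd genes 0 were. The lowest adjusted p was 0.0659, for Ndufa13 (edgeR). DESeq2 called 1 member, Ndufb9, at an adjusted p of 0.0411, with a range of 0.03 to 0.694 over the settings tried. The low ends of the ranges given for Ndufb9, Ndufa1, Ndufa11 and Ndufb2 came from a crossed pairing of the libraries. That pairing was added after the data were seen. DESeq2 called 8.34% of the genes to which it gave an adjusted p. These p-values measure the spread between 2 libraries a group. Where 1 library was left out, its group had a single library, which was assumed to vary like the pair of the other group. Such fits called 5.8% of all genes when sham 2 was omitted, 2.34% when TAC 1 was and 10.3% when TAC 2 was.

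The nuclear subunits nevertheless leaned 1 way under this scaling. The log2 fold change, TAC over sham, was above 0 for 36 of 37, against 49.1% of all genes. Its median was 0.21, with a range from -0.06 for Ndufc2 to 0.35 for Ndufb3, against a median of -0.01 over all genes. Among tested genes that were not members and had at least 30 CPM, the median was 0.23 for 193 with an implied length up to 1000 bases and 0.09 for 2879 longer ones, and 0.04 and -0.09 under total-count scaling. Some nuclear subunits belong to the longer class. Both TAC libraries lay above both sham libraries in TMM-scaled CPM for 32 of 37, against 29.8% of all genes. The exceptions were Ndufa3, Ndufb6, Ndufc2, Ndufs1 and Ndufv3. Summed over the 37 genes, the level was 5845 and 6206 CPM in sham 1 and sham 2 and 6846 and 6743 CPM in TAC 1 and TAC 2, so the groups did not overlap.

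This lean depended on the scaling. With total counts as library size, the scaling that the study names, the median over all genes was -0.20 and the nuclear subunits had a median of 0.02. Relative to the median of all genes the nuclear subunits stood as far up as before, but 21 of 37 were then above 0, against 23.2% of all genes. In the deposited FPKM, which carry the library size scaling of the authors, 3 of 37 nuclear subunits had both TAC libraries above both sham libraries, against 8.49% of all genes. These were Ndufa1, Ndufa11 and Ndufb2. Ndufc2 and Ndufs1 had both TAC libraries below both sham libraries in FPKM, a pattern of 45.6% of all genes.

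**Figure D2:**
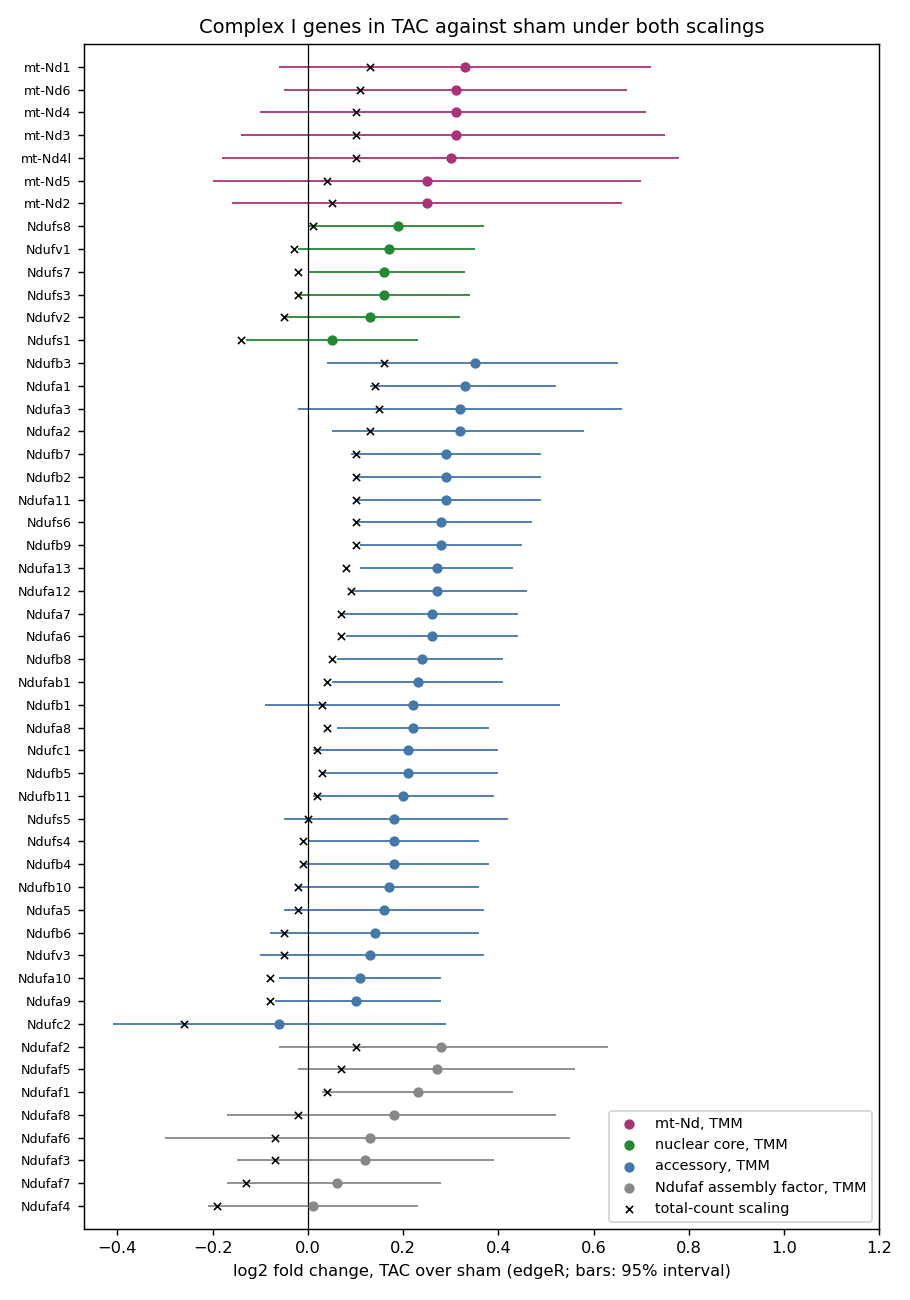
Log2 fold change (TAC over sham) of 51 tested subunit and assembly factor genes, with 95% intervals from edgeR under TMM scaling (circles) and the value under total-count scaling (crosses). Under TMM all but Ndufc2 are above 0, whereas the crosses of 5 of the 6 nuclear core subunits drawn lie below 0.

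Core and accessory subunits are given separately, with no test between them. The median log2 fold change was 0.16 for the 7 core subunits and 0.22 for the 30 accessory ones, of which 9 in the peripheral arm had 0.26 and 20 in the membrane arm had 0.22. The order of the arms turned when sham 1 was left out (0.16 and 0.18) and when TAC 1 was left out (0.23 and 0.25). In the core, Ndufs8, which carries iron-sulfur clusters close to the quinone site, had 102 and 105.2 CPM in sham and 112.2 and 124 CPM in TAC. The value of 0.19 ± 0.08 (SE) was the highest of the core (edgeR adjusted p = 0.174). This rank did not hold without TAC 2, where Ndufs8 had 0.12, Ndufv1 0.23 and Ndufs7 0.20. Ndufs1, the largest core subunit, had the lowest core value, 0.05 ± 0.08 (edgeR adjusted p = 0.699). Its levels of 536.7 and 563.9 CPM in sham and 580.7 and 559 CPM in TAC overlapped. Scaled by total counts, Ndufs8 had a log2 fold change of 0.01 and the other core genes had values from -0.14 to -0.02.

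Among the nuclear subunits the highest values were those of small accessory subunits of both arms, Ndufb3, Ndufa1 and Ndufa3 of the membrane arm and Ndufa2 of the peripheral arm. Ndufb3, of the distal end of the membrane arm, had 64.91, 85.42, 101.3 and 89.89 CPM in sham 1, sham 2, TAC 1 and TAC 2. The groups did not overlap, but sham 2 stood closer to TAC 2 than to sham 1. On the log2 scale TAC was higher by 0.35 ± 0.13 (edgeR adjusted p = 0.143), and with sham 1 as the single sham library the adjusted p was 0.0148 in a range of 0.0148 to 0.514 over all settings. The difference was 0.56 with sham 1 alone and 0.16 with sham 2 alone (edgeR adjusted p = 0.511). Ndufa1, of the proximal membrane arm and X-linked, had 35.87 and 38.75 CPM in sham and 48.1 and 45.48 CPM in TAC. Here each TAC library was above each sham library in CPM and in FPKM. On the log2 scale TAC was higher by 0.33 ± 0.08 (edgeR adjusted p = 0.0681, range 0.0217 to 0.547).

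Ndufa3, another membrane arm subunit, had 35.68, 40.03, 39.92 and 54.56 CPM in sham 1, sham 2, TAC 1 and TAC 2. TAC 2 alone was high, and TAC 1 was level with sham 2. TAC differed by 0.32 ± 0.15 on the log2 scale (edgeR adjusted p = 0.206), with 0.0459 when TAC 1 was left out and a range of 0.0459 to 0.691. The difference rested on TAC 2, at 0.53 when TAC 1 was left out and 0.08 when TAC 2 was (edgeR adjusted p = 0.668). Ndufc2, a membrane arm subunit, showed the mirror image, with 99.17, 103.2, 114.5 and 80.12 CPM and TAC 2 alone low. Its log2 fold change of -0.06 ± 0.15 became 0.18 without TAC 2. An annotated processed pseudogene overlaps Ndufc2 on the same strand.

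Ndufa11, which sits where complex I meets complex III in supercomplexes, had 126.3 and 130.6 CPM in sham and 167.7 and 147.1 CPM in TAC, a log2 difference of 0.29 ± 0.08 (edgeR adjusted p = 0.0857, range 0.0267 to 0.64). Ndufb2, of the membrane arm, had 58.05 and 60.33 CPM in sham and 76.18 and 68.95 CPM in TAC, at 0.29 ± 0.08 (edgeR adjusted p = 0.0795, range 0.0262 to 0.647). In both genes the groups did not overlap and TAC 1 was the highest library. With TAC 1 as the single TAC library both were called, at adjusted p of 0.0336 and 0.0442 (edgeR). Ndufa2, of the peripheral arm, had 40.07, 50.22, 56.24 and 56.15 CPM, at 0.32 ± 0.11 (edgeR adjusted p = 0.126), and was called without sham 2 at 0.0312 within a range of 0.0312 to 0.609. Its difference was 0.49 without sham 2 but 0.16 without sham 1 (edgeR adjusted p = 0.529). In Ndufa2 and Ndufb3 sham 1 was clearly the lowest library. It was also the lowest for most other nuclear subunits. Over all 37, the median log2 CPM relative to each gene's own mean was -0.16 in sham 1 and -0.05 in sham 2. It was 0.11 in TAC 1 and 0.10 in TAC 2.

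Of the Ndufaf assembly factors all 8 had a log2 fold change above 0, with a median of 0.15, and 3 of 8 under total-count scaling. When sham 1 or TAC 1 was left out 6 of 8 were above 0, and the median ran from 0.11 without TAC 1 to 0.24 without TAC 2. Ndufaf1, of the assembly complex for the membrane arm and named here after its values were seen, was the 1 with an unadjusted p under 0.05, at 32.65 and 34.79 CPM in sham and 40.85 and 38.32 CPM in TAC (0.23 ± 0.09, edgeR adjusted p = 0.137). Ndufaf4, which acts on the quinone-binding part, had the lowest value, 0.01 ± 0.09 (edgeR adjusted p = 0.96). Its levels of 45.32 and 46.39 CPM in sham lay between those of 42.78 and 49.46 CPM in TAC. Among 12 assembly factors without an Nduf name, 11 were in the tables and tested, 0 were called in either direction and the median was 0.07. It was 0.01 without TAC 1, with 6 of 11 above 0, and -0.12 under total-count scaling, with 1 of 11 above 0.

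The 7 mt-Nd genes had similar fold changes, and TAC 1 was the highest library for each of them. Their log2 fold changes ran from 0.25 to 0.33 with a median of 0.31, and adjusted p ran from 0.236 to 0.428 (edgeR). mt-Nd1 had 27069, 31085, 41446 and 31671 CPM in sham 1, sham 2, TAC 1 and TAC 2, and a log2 fold change of 0.33 ± 0.17. TAC 1 stood apart, while TAC 2 was close to sham 2.

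mt-Nd5, the outermost antiporter-like subunit, had 25799, 27672, 37893 and 25635 CPM, at 0.25 ± 0.19. Here TAC 2 was the lowest of the 4 libraries. mt-Nd6, the gene on the other strand, had 4544, 5230, 6945 and 5183 CPM, at 0.31 ± 0.15. In mt-Nd4 and mt-Nd1 both TAC libraries were above both sham libraries, which makes 2 of 7, against 29.8% of all genes.

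mt-Nd4 had 32168, 33511, 46924 and 34317 CPM and mt-Nd2 had 22370, 24151, 32283 and 23153 CPM. The small mt-Nd3 had 2651, 3481, 4467 and 3111 CPM, and mt-Nd4l had 1213, 1706, 2139 and 1456 CPM. Sham 2 was above TAC 2 in each mt-Nd gene but mt-Nd1 and mt-Nd4. When TAC 1 was left out, the mt-Nd genes had a median log2 fold change of 0.02 and 4 of 7 were above 0. Without TAC 2 it was 0.51 and 5 of 7 were called (mt-Nd1, mt-Nd2, mt-Nd4, mt-Nd5 and mt-Nd6, edgeR), in a fit with 1 TAC library that called 10.3% of all genes. For the nuclear subunits the same omissions gave medians of 0.22 and 0.20.

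The other 6 protein-coding mitochondrial genes, for subunits of complexes III, IV and V, had a median log2 fold change of 0.32, and 0 were called. It was 0.06 without TAC 1 and 0.53 without TAC 2. DESeq2 called 1 of these 6 genes, against 8.34% of the genes to which it gave an adjusted p. The summed counts of mt-Nd genes were 0.468, 0.477, 0.46 and 0.452 times those of these 6 genes in sham 1, sham 2, TAC 1 and TAC 2. Both TAC ratios were lower than both sham ratios, with means of 0.456 ± 0.00554 and 0.472 ± 0.00599 (SD, n = 2), a log2 difference of -0.05 that was not tested.

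**Figure D3:**
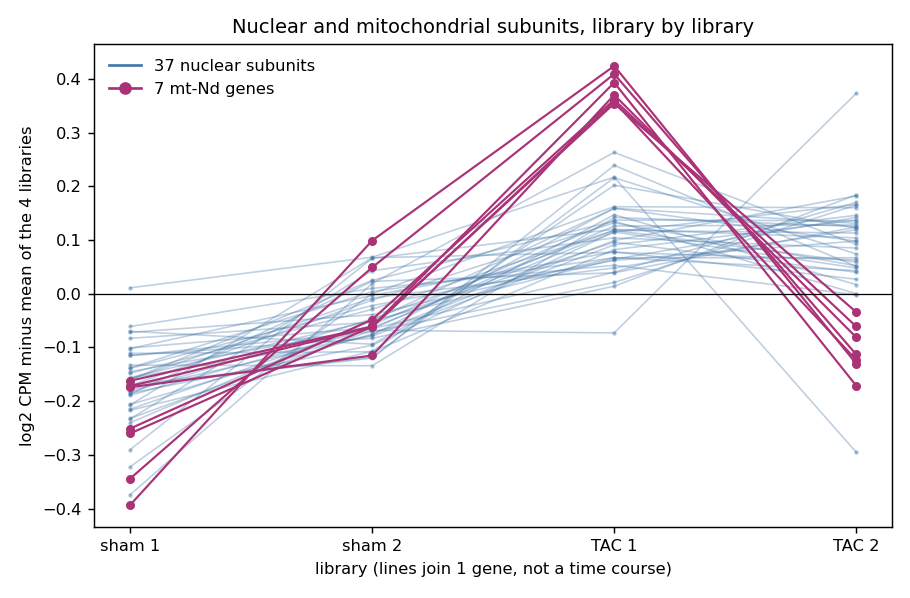
Log2 CPM (TMM-scaled, with 0.5 added) of each subunit gene minus its own mean over the 4 libraries, with 1 line per gene. The 7 mt-Nd genes peak in TAC 1 and fall back below 0 in TAC 2, whereas most of the 37 nuclear subunits are above 0 in both TAC libraries, with Ndufa3 highest and Ndufc2 lowest in TAC 2.

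Within the nuclear subunits, shorter transcripts had higher fold changes. Across the 37 genes, the log2 fold change and the log2 length implied by count and FPKM had a Pearson r of -0.49, and Spearman's rho was -0.53. The 12 shortest, of 419 to 588 bases, had a median log2 fold change of 0.28, and the 12 longest, of 908 to 2630 bases, had 0.16. Over 3119 tested genes with at least 30 CPM the values were -0.27 and -0.40. Between the sham libraries themselves, sham 2 minus sham 1, the nuclear subunits gave -0.37 and -0.40, and between the TAC libraries, TAC 2 minus TAC 1, -0.08 and -0.05. For the fold change the values were -0.28 and -0.29 without sham 1 and -0.55 and -0.66 without sham 2. All of these points share the same 4 libraries, and genes are not independent replicates. The part of transcript length in the fold changes was not tested.

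**Figure D4:**
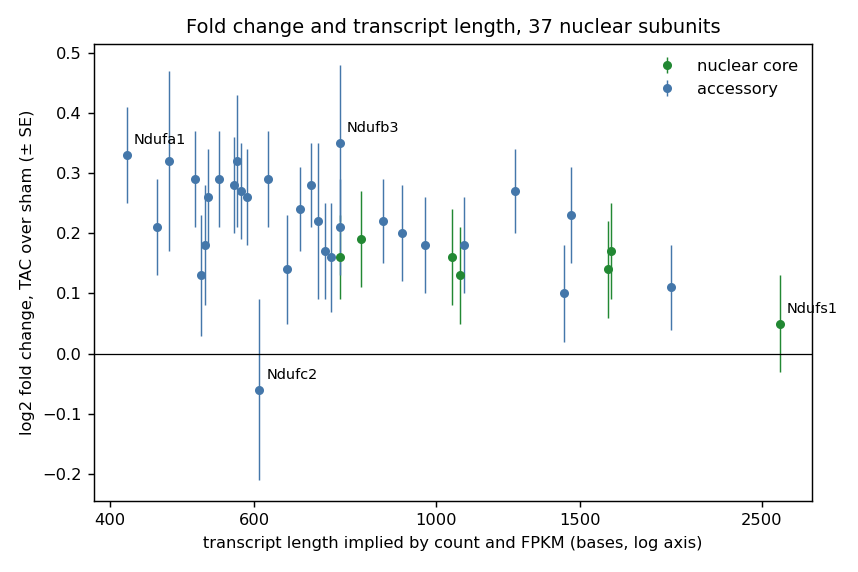
Log2 fold change (TAC over sham, ± SE, n = 2 libraries a group) of the 37 nuclear subunits against transcript length in bases (log axis). The values fall from 0.33 for Ndufa1 at 419 bases to 0.05 for Ndufs1 at 2630 bases, and Ndufc2 at -0.06 lies apart.

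Markers of non-muscle cells had lower values in TAC. As a median log2 fold change, 10 endothelial genes had -0.62, 10 fibroblast genes -0.84, 10 macrophage genes -0.92 and 9 mural cell genes -0.86, with 3, 3, 0 and 2 called lower (edgeR), against 2.43% of all genes. In the same order the medians were -0.43, -0.56, -0.37 and -0.68 without sham 1, and -0.78, -1.04, -1.27 and -0.74 without sham 2. They were -0.40, -0.61, -0.55 and -0.53 without TAC 1, and -0.91, -1.06, -1.34 and -1.14 without TAC 2. The numbers called lower also moved with the library left out. The called genes were Cdh5, Egfl7 and Esam, then Dcn, Lum and Dpt, and Pdgfrb and Abcc9. Summed levels in sham 1 and sham 2 against TAC 1 and TAC 2 were 624.7 and 503.6 against 306.4 and 420.9 CPM for endothelial, and 264.7 and 189.3 against 109.1 and 148.2 CPM for fibroblast genes. They were 133.1 and 67.7 against 35.58 and 67.85 CPM for macrophage and 757.1 and 795.7 against 440.1 and 578.3 CPM for mural genes. The 12 cardiomyocyte markers had a median of 0.06 with 0 called, but went both ways: 5 were higher and 1 was lower at an unadjusted p under 0.05, and DESeq2 called 5 higher and 1 lower. Their median was -0.02 without sham 1 and 0.16 without sham 2, and 4 were called higher and 1 lower without TAC 2. Their values ran from -0.38 for Ryr2 to 0.41 for Myl2. The 5 red blood cell genes had 0.07 with 0 called. The TAC libraries differed for the red blood cell genes, with sums of 49.92 CPM in TAC 1 and 124.9 CPM in TAC 2 against 84.89 and 73.71 CPM in sham, and the median was 0.48 without TAC 1 and -0.74 without TAC 2. The part of these other cells in the complex I values was not tested, and fewer cells of a type and less RNA per cell cannot be told apart in such libraries.

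Ndufa4l2 had the sign of those markers and not that of most subunits. It is a paralog of Ndufa4 known from hypoxia responses and from pericytes, and it was singled out after its values were seen because it was the 1 member below an unadjusted p of 0.05 in the lower direction. It had 3.129 and 2.989 CPM in sham and 1.291 and 1.881 CPM in TAC, with no overlap in that direction, a pattern of 30.3% of all genes. The log2 difference was -0.95 ± 0.28 (edgeR adjusted p = 0.0865). The adjusted p was 0.0367 without the low-count filter (edgeR) and 0.156 in DESeq2. With all 4 libraries the difference lay close to the macrophage, mural and fibroblast medians. Without sham 1 it was -0.92, against -0.37, -0.68 and -0.56 for those lists. Without TAC 1 it was -0.70, against -0.55, -0.53 and -0.61. A link with those cells was not tested. Ndufa4 itself, the complex IV subunit, was 154.3 to 464.2 times as high in FPKM with a log2 difference of 0.19 ± 0.08 (edgeR adjusted p = 0.189). That difference was 0.11 without sham 1, 0.28 without sham 2 and 0.00 under total-count scaling.

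Regulators and partners of the subunit genes were read from lists. Of 11 regulators of nuclear subunit genes 1 was called lower and 0 higher in edgeR, against 2.43% of all genes called lower and 5.01% called in either direction. DESeq2 called 1 higher and 1 lower, against 8.34% of the genes to which it gave an adjusted p. The median log2 fold change of the 11 regulators was 0.05 (edgeR). This median was -0.02 without sham 1, -0.03 without TAC 1 and -0.14 under total-count scaling. The gene called in edgeR was Ppargc1b, a coactivator of mitochondrial genes, at 10.24 and 9.626 CPM in sham and 6.528 and 5.93 CPM in TAC. The groups did not overlap, and the log2 difference was -0.67 ± 0.14 (edgeR adjusted p = 0.0441, range 0.00942 to 0.125). The call was lost with the replicate number as a block (0.0613) and when any 1 library was left out (adjusted p of 0.125 and 0.0681 without sham 1 or sham 2, and of 0.0811 and 0.0652 without TAC 1 or TAC 2). Its relative Ppargc1a, named after its values were seen, had 75.63 and 83.96 CPM in sham and 112.9 and 97.9 CPM in TAC, at 0.40 ± 0.10 (edgeR adjusted p = 0.0553, range 0.00765 to 0.3). Of 26 genes for mitochondrial RNA synthesis and upkeep 0 were called in edgeR (median 0.11), and of 3 supercomplex assembly genes 0 (median 0.20). DESeq2 called 1 of the 26 higher and 0 of the 3. Leaving out sham 1 gave medians of 0.03 and 0.12 for these lists, and total-count scaling gave -0.08 and 0.01.

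The promoters of the nuclear subunits were searched for short motifs of factors known to act on respiratory genes, because these genes leaned 1 way together under TMM scaling. The lean was not particular to them. Their median log2 fold change was 0.21, beside 0.23 for the 193 other genes with at least 30 CPM and up to 1000 bases. Under total-count scaling it was 0.02. Promoters of 250 bases before to 50 bases after the start site were taken from RefSeq (GRCm38.p6), where 33 of 37 nuclear subunits had an entry. The motifs were GCGCATGCG (NRF1-type), CAAGGTCA (ERR-type), CCGGAAG (ETS-type) and ATGGCGGC (YY1-type), on both strands and with no overlap between different motifs in these promoters. NRF1-type matches were in 2 promoters (6.06%, against 1.95% of 27025 genes), ERR-type in 1 (3.03%, against 1.76%), ETS-type in 4 (12.1%, against 9.93%) and YY1-type in 6 (18.2%, against 2.6%). At least 1 of the 4 motifs was in 13 promoters (39.4%, against 15%).

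Windows upstream of the start site with an NRF1-type or ETS-type match are shown for 4 subunits, with the match in capitals.
Ndufa11 (chr17:56717691-56717720, plus strand): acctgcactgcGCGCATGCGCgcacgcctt
Ndufa8 (chr2:36049339-36049368, minus strand): gcgcttgcgcgtcgctggagaCGCATGCGC
Ndufb7 (chr8:83566726-83566755, plus strand): agcctagatgacCCGGAAGacactgaaggg
Ndufs3 (chr2:90904731-90904760, minus strand): ccccgcgtccgcCCGGAAGaagagtcactg
The NRF1-type motif is nearly its own reverse complement, so that Ndufa11 matched on both strands. The log2 fold changes of these 4 genes were 0.29, 0.22, 0.29 and 0.16, beside a median of 0.21 over the 37 nuclear subunits. Ndufb6, with an ETS-type match that began at -232 from the start site, is not shown and had 0.14. A link between motif and fold change was not tested.

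The YY1-type matches are shown because they coincide with the start of translation. In 5 of 6 genes the first base of the match was the A of an annotated start codon, so that the same letters also begin the protein.
Ndufa9 (chr6:126849095-126849123, minus strand): tgtgggagaagATGGCGGCcgccgtccgc
Ndufb5 (chr3:32737071-32737100, plus strand): ccggtgtagccATGGCGGCcatgagcctgc
Ndufs4 (chr13:114388045-114388067, minus strand): cctacaggaagATGGCGGCggtc
Ndufs6 (chr13:73328433-73328457, minus strand): tcaccggcaagATGGCGGCggtgct
Ndufs7 (chr10:80249465-80249494, plus strand): ccgaggccaagATGGCGGCgctggcgggtg
In Ndufa7, the sixth gene, the match lay upstream of the start site and not at an annotated start codon. The log2 fold changes of the 5 genes shown ran from 0.10 for Ndufa9 to 0.28 for Ndufs6. A match describes the letters of the window and does not show that a factor is bound there.

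The counts of some members carry added uncertainty from their neighbours. Of the 48 Nduf genes, 16 overlap a protein-coding gene on the opposite strand and 4 overlap 1 on the same strand, and 3 had counts that were not whole (Ndufb6, Ndufb9 and Ndufaf7). The implied length differed between libraries by at most 7.14% for the nuclear subunits, with 35 of 37 under 5%, and by up to 15.5% over all Nduf genes.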

How the data were processed

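Cardiomyocyte RNA of 2 sham and 2 TAC mice was sequenced, and titles gave each library its group and number. The authors deposited 2 values per gene, an expected count (estimated, so not always whole) and FPKM. Their processing notes name Bowtie2 2.2.8, StringTie 1.3.1 and mm10. The counting program and its use of strand were not stated in the labels or methods used here. FPKM depends on the library total, so a large mitochondrial share lowers all other genes.

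Expected counts were rounded and analysed in R 4.3.3 with edgeR 4.0.16: filterByExpr, TMM factors (1.097, 1.04, 0.8683 and 1.009 for sham 1, sham 2, TAC 1 and TAC 2), glmQLFit without a block, glmQLFTest, and Benjamini-Hochberg adjustment over 12499 genes with a threshold of 0.05. The procedure was tested on simulated data. Biological variation (common coefficient) was 10.5%. The standard error was the log2 fold change divided by the square root of F. CPM used TMM-scaled library sizes. Chi-square per degree of freedom between replicates was 8.082 for sham and 26.71 for TAC.

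Alternatives were the replicate number as a block, total-count scaling, scaling without mitochondrial genes, DESeq2 1.42.0, no low-count filter, other thresholds, FPKM ratios, leaving out each library and, added after the data were seen, a crossed pairing. Members and lists were chosen with earlier results of these data known. Named were all mt-Nd and nuclear core genes, the 3 nuclear members with the highest and the 3 with the lowest fold change at a mean of at least 5 CPM, the 3 highest and 3 lowest in FPKM, untested members, up to 5 whose call changed when 1 library was left out, and called genes of other lists. The results of 1 gene under this rule are not reported here. Genes named beside motifs, gene models or another setting's calls were chosen for those.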

Additional observations from a re-analysis of the deposited data

How the results depend on the processing

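Only 2 libraries a group limit every test, and depth of 24237777 counts or more does not change that. The replicate numbers did not pair the libraries (correlation of deviations -0.242), and a fit with the replicate number as a block called 566 genes and 0 members, and lost the call of Ppargc1b. The crossed pairing called 2131 genes (968 higher, 1163 lower), 13 Nduf genes and 1 mt-Nd gene. Total-count scaling, which moved the median of all genes by -0.189, from near 0 to -0.197, called 105 genes higher and 423 lower, against 322 and 304 with TMM, and gave the nuclear subunits a median log2 fold change of 0.02, as did FPKM ratios with 0.02. Among others it reversed Ndufs1 (-0.14), Ndufs3 (-0.02), Ndufs7 (-0.02), Ndufv1 (-0.03), Ndufv2 (-0.05), Ndufb4 (-0.01), Ndufb6 (-0.05), Ndufb10 (-0.02) and Ndufaf4 (-0.19). Under total-count scaling 21 of 37 nuclear subunits and 3 of 8 Ndufaf assembly factors were above 0. Without the low-count filter 1676 genes were called (707 higher, 969 lower) and 7 Nduf genes, and DESeq2 called 444 higher, among them 1 Nduf gene, and 477 lower. At an adjusted p of 0.01 there were 92 calls (70 higher, 22 lower), and at 0.1 there were 1817 (878 higher, 939 lower) with 12 Nduf genes. Leaving out 1 library gave 301 (without TAC 1) to 1336 (without TAC 2) calls, 183 to 560 higher and 118 to 776 lower, 0 to 2 Nduf and 0 to 5 mt-Nd calls. Over the same omissions the median was 0.16 (without sham 1) to 0.27 (without sham 2) for nuclear subunits and 0.02 to 0.51 for mt-Nd genes. The log2 ratio of mt-Nd to nuclear counts, 0.10 higher in TAC, became -0.12 without TAC 1 and 0.32 without TAC 2. Without TAC 1, mt-Nd2 (-0.01), mt-Nd4l (-0.00), mt-Nd5 (-0.06), Ndufaf4 (-0.10) and Ndufaf6 (-0.06) reversed. Ndufaf4 (-0.01) and Ndufaf6 (-0.01) also reversed without sham 1, and Ndufc2 (0.18) without TAC 2. Over the 4 omissions the highest values were 0.48 for mt-Nd2, 0.57 for mt-Nd4l, 0.51 for mt-Nd5, 0.11 for Ndufaf4 and 0.29 for Ndufaf6. The lowest for Ndufc2 was -0.34. The causes were not tested.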
